A study of Homo sapiens with 22 samples.

Results

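The step from day 16 to day 18 of culture with ectopic MYC switched on was examined across all genes in human haematopoietic progenitor cells. It rests on 4 of the 22 libraries, the 2 of DOX day 18 and the 2 of DOX day 16, which were chosen by treatment and day alone. The cells descend from the H1 line of human embryonic stem cells, an established cell line, and their polyA RNA was sequenced. DOX cultures received doxycycline and expressed ectopic MYC. UT cultures received no doxycycline, share the line name of the DOX cultures in the labels and were sampled on the same days (2 libraries on day 18 and 2 on day 16). No sample here is labelled as doxycycline without ectopic MYC, so effects of the drug and of MYC cannot be told apart, and both arms belong to 1 batch in the labels. The table has 1 MYC row, in which endogenous and ectopic transcripts cannot be told apart. Nothing in the labels states that the 2 replicates of a group came from separate cultures, and p-values therefore measure the spread between these libraries only, which may be technical.

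As background, MYC forms a dimer with MAX that binds E-box sequences and raises transcription of genes for ribosome assembly, nucleotide synthesis and entry into S phase. In blood formation its level normally drops as progenitors leave the cell cycle and begin to make the granule proteins, receptors and oxidase of mature granulocytes. Metallothioneins are small cysteine-rich proteins that bind zinc and other metals, and their genes lie in a cluster on chromosome 16 whose promoters hold metal response elements bound by the factor MTF1.

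Library totals were 26704027 and 38791933 estimated counts on DOX day 18, against 35377847 and 35259754 on DOX day 16. Mitochondrially encoded genes supplied 36.9% and 36.5% of the counts on DOX day 18, against 21.0% and 19.5% on DOX day 16, a difference of 16.5 percentage points (exact two-sided permutation p = 0.3333, the smallest value that 6 arrangements allow). The nuclear noncoding RNA MALAT1 supplied 2.08% and 3.51% of the counts outside the mitochondrial genome on DOX day 18, against 0.261% and 0.368% on DOX day 16. MALAT1 itself was called (log2 3.23, SE 0.40, adjusted p = 4.67e-05). The part of these shares in the results below was not tested. Progenitor markers fixed for the labelled cell type were all detected, with CD34 at 12.3 and 9.80 CPM on DOX day 18 and at 16.6 and 12.3 CPM on DOX day 16. CPM is the count scaled to a fixed library total after TMM adjustment, which sets the bulk of genes to the same level in every library. The 4 eosinophil markers summed to 7484 and 9225 CPM on DOX day 18, against 4897 and 4971 CPM on DOX day 16. Most of each sum was PRG2, at 5260 and 6631 CPM on DOX day 18, against 3150 and 3416 CPM on DOX day 16. CLC, at 668 and 603 CPM on DOX day 18 against 709 and 713 CPM on DOX day 16, was not called. CCR3 stayed at or below 0.323 CPM. The 5 neutrophil markers summed to 1696.5 and 1971 CPM, against 1826 and 1684 CPM. The 9 progenitor markers summed to 1140 and 1334 CPM, against 1295 and 1372 CPM. Such sums over different genes do not compare numbers of cells. Pluripotency markers stayed at or below 0.205 CPM in sum in each of the 4 libraries. In bulk RNA, fewer cells of a type and less RNA per cell cannot be told apart, and this holds for every gene group below.

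Of 20115 genes tested, 4059 (20.2%) were called at an adjusted p under 0.05 (edgeR quasi-likelihood test with Benjamini-Hochberg adjustment over all tested genes, used for every adjusted p below). On DOX day 18, 1860 genes were higher (9.25%) and 2199 were lower (10.9%) than on DOX day 16. Called genes with an estimated change of at least 2-fold were fewer, with 831 higher (4.13%) and 448 lower (2.23%). A test against a 2-fold threshold called 96 genes, 70 higher and 26 lower. Scaling by library size without TMM moved the median of all log2 fold changes by -0.39 and gave 675 higher and 5741 lower genes, and directions below are therefore relative to the median gene. The count of calls was lower when any of the 4 libraries was left out, and lowest without DOX day 18 replicate 2. Counts in many single gene lists are therefore also given without single libraries. Not every list count that moves by over 1.5 times is printed. The 2 days did not overlap at 30.9% of all genes in the higher and 32.4% in the lower direction, and they do not overlap for any gene whose DOX values are given below.

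MYC itself was measured at 66.2 and 56.1 CPM on DOX day 18, against 133 and 84.4 CPM on DOX day 16. Both later libraries lay below both earlier ones, though the 2 earlier ones were far apart. The log2 fold change was -0.83 (SE 0.24, adjusted p = 0.0225). The call was lost without DOX day 18 replicate 2 (-0.72, adjusted p = 0.191) and without DOX day 16 replicate 1 (-0.47, adjusted p = 0.308). The UT step over the same days was -0.45 and the difference between the steps was -0.38 (adjusted p = 0.60). MYC was at -0.68 in the DOX step before and at -0.64 in the DOX step after, neither of them called. Those neighbouring steps share libraries with the step described here, and their values are given side by side only.

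Metallothionein genes rose, and their list had the highest median log2 fold change of the 46 lists. Of 8 tested members of the metallothionein list, 7 were called higher, against 9.25% of all genes, with a median log2 fold change of 3.95, and 0 were called lower. They were MT2A, MT1X, MT1G, MT1E, MT1H, MT1F and the metal-sensing factor MTF1. The zinc exporter SLC30A1 was not called (-0.49). The higher calls numbered 5 without DOX day 18 replicate 2 or DOX day 16 replicate 2, 6 without DOX day 16 replicate 1 and 7 without DOX day 18 replicate 1, and with library sizes alone 6 were higher and 1 lower. The MT1 genes resemble each other closely, so reads may be split among them and values of single MT1 genes are uncertain. Promoter windows of 3 of these members, for which RefSeq gives a window, are shown, each the 250 bases before the annotated start on the plus strand of chromosome 16 in GRCh38.p14. They are MT2A (chr16:56608334-56608583), MT1X (chr16:56682220-56682469) and MT1H (chr16:56669564-56669813). Capitals mark matches, on either strand, to TGCACNC or TGCGCNC, the core letters of the metal response element.
MT2A: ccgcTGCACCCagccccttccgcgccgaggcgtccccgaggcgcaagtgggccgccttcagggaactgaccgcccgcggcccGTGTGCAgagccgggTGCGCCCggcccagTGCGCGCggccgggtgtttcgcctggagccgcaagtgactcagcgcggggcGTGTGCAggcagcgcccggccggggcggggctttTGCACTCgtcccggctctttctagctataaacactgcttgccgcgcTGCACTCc
MT1X: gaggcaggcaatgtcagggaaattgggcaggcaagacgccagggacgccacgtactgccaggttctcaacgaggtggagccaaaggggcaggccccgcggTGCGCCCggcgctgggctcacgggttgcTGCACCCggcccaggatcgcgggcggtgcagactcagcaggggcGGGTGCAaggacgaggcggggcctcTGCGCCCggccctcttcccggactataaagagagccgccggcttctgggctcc
MT1H: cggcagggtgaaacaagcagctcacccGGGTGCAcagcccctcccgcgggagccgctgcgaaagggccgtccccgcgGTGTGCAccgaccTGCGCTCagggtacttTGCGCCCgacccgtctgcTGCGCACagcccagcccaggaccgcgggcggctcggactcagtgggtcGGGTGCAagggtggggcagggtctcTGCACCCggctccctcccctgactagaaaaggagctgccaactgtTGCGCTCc

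These windows hold 7, 4 and 8 matches. Of the 5 list windows of 300 bases (250 before and 50 after the start), 4 (80.0%) hold at least 1 match, against 35.7% of 17969 windows of all tested genes. The list windows are those of MT2A, MT1X, MT1H, MTF1 and SLC30A1, while MT1G, MT1E and MT1F have none. A match describes letters only and is not a shown site. MT2A was at 91.5 and 118 CPM on DOX day 18, against 8.14 and 7.54 CPM on DOX day 16, a 13.3-fold rise (log2 3.74, SE 0.39, adjusted p = 1.01e-05). MT1X was at 26.0 and 37.2 CPM on DOX day 18, against 1.95 and 1.94 CPM on DOX day 16 (log2 4.02, SE 0.43, adjusted p = 1.61e-05). MT1G was at 14.7 and 24.5 CPM on DOX day 18, against 0.472 and 0.299 CPM on DOX day 16 (log2 5.66, SE 0.75, adjusted p = 0.000102). In all 3 genes the later libraries lay far above the earlier ones, and DOX day 18 replicate 2 was the higher of the pair. MT1H had 156 counts in the 2 later libraries and 1 count in the 2 earlier ones. MT1F, at 1.15 and 1.99 CPM on DOX day 18 against 0.185 and 0.0214 CPM on DOX day 16, lost its call without DOX day 18 replicate 2 (log2 3.42, adjusted p = 0.0564) and without DOX day 16 replicate 2 (log2 3.06, adjusted p = 0.0855).

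MT2A stood at 6.76 and 3.72 CPM on UT day 18, against 3.99 and 4.95 CPM on UT day 16, and the DOX step exceeded the UT step by 3.55 on the log2 scale (SE 0.57, adjusted p = 0.00265). The same difference was 4.38 for MT1X (SE 0.62, adjusted p = 0.000994) and 6.33 for MT1G (SE 1.12, adjusted p = 0.00628), and it was not called for MT1E (2.93, adjusted p = 0.232), MT1F (1.53, adjusted p = 0.522) or MT1H (3.86, SE 32.3, adjusted p = 0.992). Metallothionein levels had also been high earlier in the DOX arm: on DOX day 12 MT2A was at 56.6 and 99.0 CPM, which overlaps its range on DOX day 18, and on DOX day 14 it was at 4.44 and 3.37 CPM. MT1X was at 7.75 and 14.3 CPM on DOX day 12 and at 0.913 and 0.568 CPM on DOX day 14. The earlier high level was not limited to DOX. From UT day 12 to UT day 14 the log2 fold change was -2.91 for MT2A, -2.65 for MT1G and -2.87 for MT1E. Over those UT days MT1H was at -4.28, MT1X at -0.55 and MT1F at 0.11, all given without a test. In the next DOX step, to day 20, MT2A fell by 2.95 (adjusted p = 6.83e-05) and MT1X by 2.45 (adjusted p = 0.000611). HMOX1, the haem oxygenase that opens the haem ring and releases iron, was at 29.1 and 27.0 CPM on DOX day 18, against 6.81 and 6.43 CPM on DOX day 16 (log2 2.08, SE 0.21, adjusted p = 6.72e-06). In UT it fell, to 10.5 and 9.64 CPM on day 18 against 18.4 and 18.7 CPM on day 16 (log2 -0.88, adjusted p = 0.0124). The DOX step exceeded the UT step by 2.96 (SE 0.29, adjusted p = 5.11e-05), and the later DOX step was at -1.38 (adjusted p = 0.000227). The other iron genes called higher were TFR2, SLC11A1 and FTL, making 4 of 16 tested iron genes higher and 0 lower (median log2 -0.04), whereas with library sizes alone 2 were higher and 6 lower (median -0.45). Leaving out DOX day 16 replicate 2 gave 2 higher calls.

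**Figure D1:**
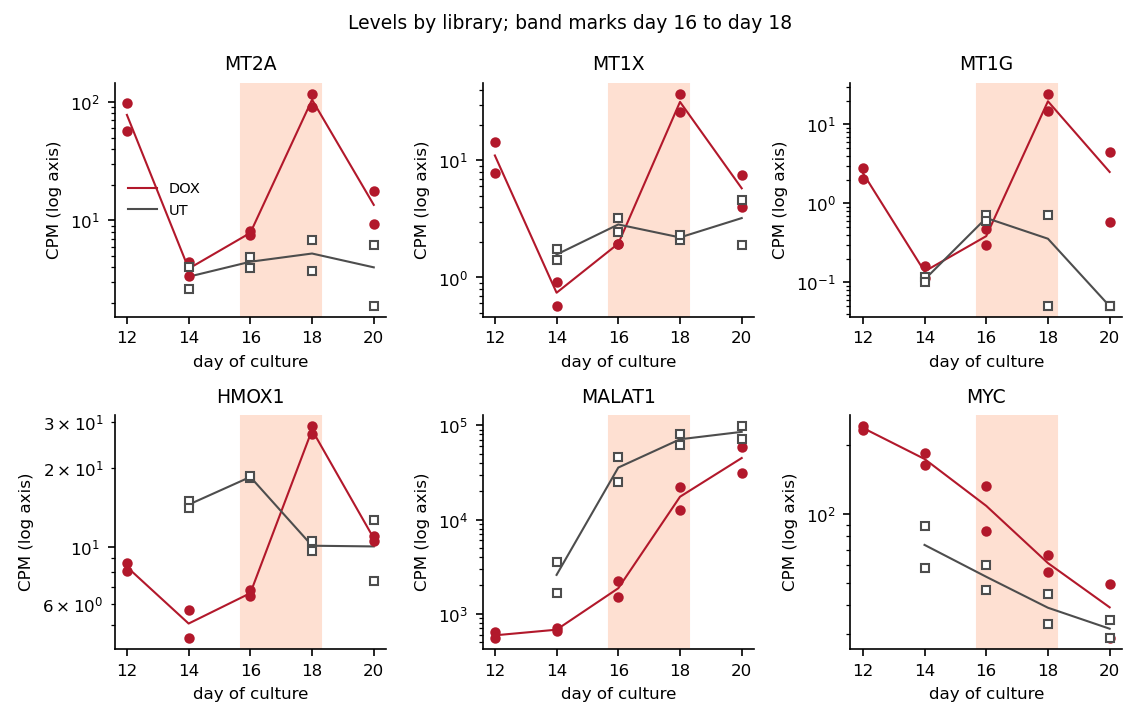
Level of 6 genes in every library, in CPM on a log axis, against the day of culture; filled red circles are DOX libraries, open grey squares are UT libraries (drawn from day 14), lines join the means of 2 libraries, and the band marks day 16 to day 18. Values of 0 are drawn at 0.05 CPM. UT day 12, from which MT2A fell to UT day 14 (log2 -2.91), is not drawn. MT2A was at 56.6 and 99.0 CPM on DOX day 12, low on days 14 and 16 and at 91.5 and 118 CPM on DOX day 18, and MT1X and MT1G were likewise higher on DOX day 12 than on days 14 and 16, while the group means of MALAT1 increased and those of MYC decreased at each day shown from day 14.

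Cell cycle genes fell, and the mitosis list held the most lower calls of all lists. Of 40 tested mitosis genes, 36 were called lower and 0 higher, against 10.9% of all genes called lower, with a median log2 fold change of -0.84. All 40 values were negative, and the 4 that missed the threshold were MKI67, CKAP2L, MYBL2 and CENPE. Leaving out a library gave 29 to 33 lower calls. Promoters of mitosis genes are known to hold the cell cycle genes homology region, with core letters TTTGAA, together with CCAAT boxes. The 250 bases before the start of the 2 mitosis genes with the lowest values are shown, from RefSeq in GRCh38.p14, with matches to either motif on either strand in capitals. They are DLGAP5 (chr14:55191586-55191835, minus strand) and CCNB1 (chr5:69166900-69167149, plus strand).
DLGAP5: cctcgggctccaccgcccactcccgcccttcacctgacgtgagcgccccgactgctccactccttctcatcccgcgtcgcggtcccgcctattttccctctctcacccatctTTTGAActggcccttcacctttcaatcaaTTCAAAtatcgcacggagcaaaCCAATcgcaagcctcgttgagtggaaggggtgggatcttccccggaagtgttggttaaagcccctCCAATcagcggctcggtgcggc
CCNB1: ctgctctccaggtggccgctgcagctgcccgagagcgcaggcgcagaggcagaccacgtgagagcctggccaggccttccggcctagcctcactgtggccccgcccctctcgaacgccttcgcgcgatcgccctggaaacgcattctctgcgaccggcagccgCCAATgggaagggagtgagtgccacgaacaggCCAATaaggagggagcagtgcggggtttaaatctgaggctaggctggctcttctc

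The DLGAP5 window holds 2 matches to TTTGAA and 2 to CCAAT, and the CCNB1 window holds 0 and 2. Of 41 windows of mitosis genes, 28 (68.3%) hold TTTGAA, against 1 of 41 windows (2.44%) of DNA replication genes and 10.9% of all windows. CCAAT stands in 75.6% of mitosis windows, 58.5% of replication windows and 34.4% of all windows. DLGAP5, a spindle protein that stabilises kinetochore fibres, was at 12.3 and 8.51 CPM on DOX day 18, against 32.0 and 34.7 CPM on DOX day 16 (log2 -1.69, SE 0.26, adjusted p = 0.000294). Cyclin B1 (CCNB1), which activates CDK1 at entry into mitosis, was at 31.9 and 26.2 CPM on DOX day 18, against 69.7 and 87.8 CPM on DOX day 16 (log2 -1.44, SE 0.19, adjusted p = 9.17e-05). Both genes were separated between the days with no overlap. The kinetochore protein SPC25 (log2 -1.22) and the centromeric histone CENPA (log2 -1.18) fell too. MKI67, the proliferation antigen with the most counts in the list, was at 170 and 191 CPM on DOX day 18, against 254 and 249 CPM on DOX day 16, and missed the threshold (log2 -0.48, adjusted p = 0.0539), though it passed with library sizes alone, with limma-voom and with DESeq2.

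DNA replication genes fell as well, with 28 of 36 tested members lower, 1 higher and a median log2 fold change of -0.74. Without DOX day 18 replicate 2, 16 were lower, and the other leave-outs gave 21 to 25. PCNA, the sliding clamp of the replicative polymerases, was at 80.3 and 59.9 CPM on DOX day 18, against 186 and 195 CPM on DOX day 16 (log2 -1.44, SE 0.20, adjusted p = 0.000104). MCM10, which helps to start the replicative helicase, was at 7.86 and 7.74 CPM on DOX day 18, against 18.2 and 18.0 CPM on DOX day 16 (log2 -1.22, adjusted p = 0.000194). The primase subunit PRIM1 (-1.40) and the licensing inhibitor GMNN (-1.23) also fell. The member called higher was TOP2A, the topoisomerase that untangles replicated DNA, at 342 and 416 CPM on DOX day 18 and 227 and 282 CPM on DOX day 16 (log2 0.57, adjusted p = 0.0333). That call was lost without DOX day 18 replicate 2 (0.41, adjusted p = 0.299), DOX day 16 replicate 1 (0.42, adjusted p = 0.278) or DOX day 16 replicate 2 (0.73, adjusted p = 0.0549), and under scaling by library size only (0.17, adjusted p = 0.535).

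In UT over the same days the mitosis list held 13 lower calls (median log2 -0.47) and the replication list 4 lower and 1 higher (median -0.05), against 6.69% of all genes lower and 3.93% higher. The test of the difference between the steps called a lower step in DOX at 1.42% of all genes. It called 9 of 36 replication genes (MCM4, MCM5, MCM6, MCM7, MCM10, GINS2, GINS4, POLA2 and CHAF1A, named after their values were seen) and 4 of 40 mitosis genes (CCNB2, KIF2C, TPX2 and PRC1, likewise) in that direction. Medians in the DOX steps on either side were -0.29 and 0.35 for replication and -0.21 and 0.16 for mitosis. G1 cyclin, kinase and E2F genes were lower in 10 of 22 and higher in 1 (median log2 -0.38), with 2 lower without DOX day 18 replicate 2, 2 without DOX day 16 replicate 2, 3 without DOX day 16 replicate 1 and 8 without DOX day 18 replicate 1. TFDP1, the dimer partner of E2F factors, was at 38.6 and 30.1 CPM on DOX day 18, against 67.6 and 73.9 CPM on DOX day 16 (log2 -1.04, adjusted p = 0.000281).

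Of 28 CDK inhibitor and p53 target genes, 4 were higher and 2 lower, against 9.25% and 10.9% of all genes. Their median log2 fold change was 0.17, or -0.24 with library sizes alone. Fewer were called lower when any of the 4 libraries was left out. CDKN1C, a CDK inhibitor of the CIP and KIP family, was at 74.8 and 90.6 CPM on DOX day 18, against 31.6 and 39.8 CPM on DOX day 16 (log2 1.21, SE 0.17, adjusted p = 0.000157). It was at -1.73 in the next DOX step (adjusted p = 1.1e-05), so DOX day 18 held its highest levels between days 14 and 20. BTG1, an antiproliferative gene, was at 92.9 and 100 CPM on DOX day 18, against 54.6 and 45.9 CPM on DOX day 16 (log2 0.94, adjusted p = 7.08e-05).

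**Figure D2:**
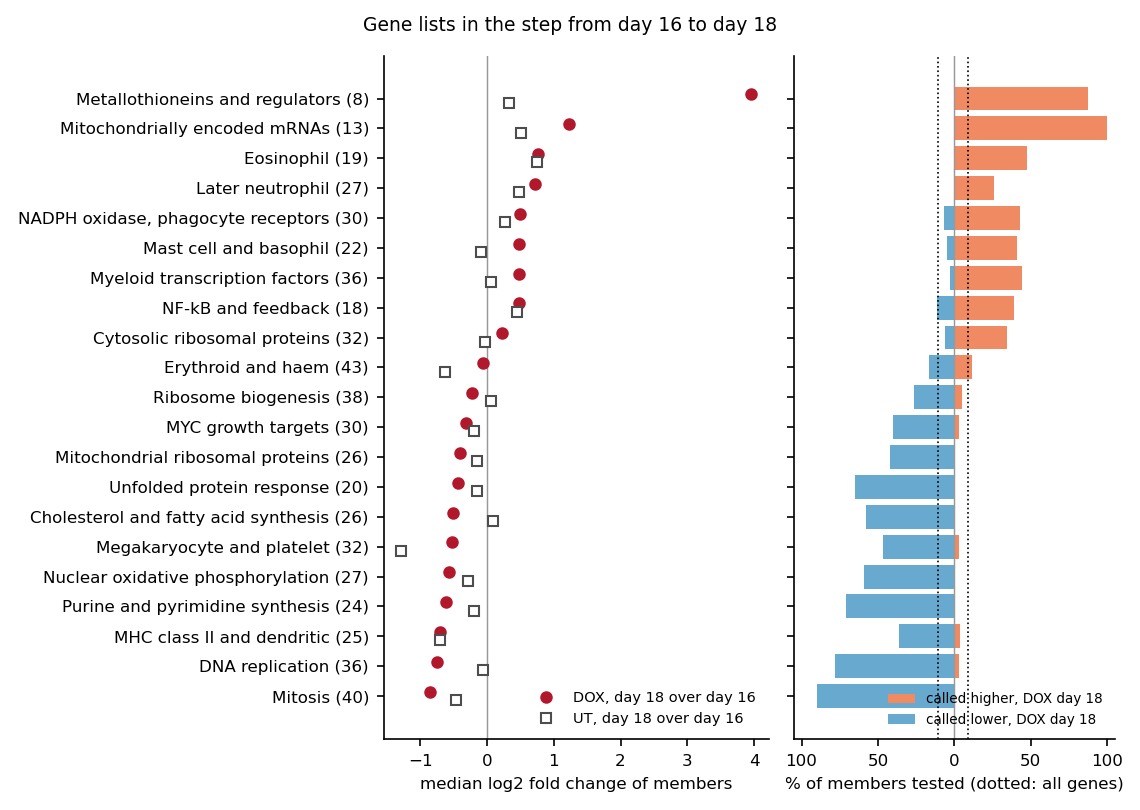
Left, median log2 fold change of the tested members of 21 gene lists (number of members in brackets), with filled red circles for DOX day 18 over day 16 and open squares for UT day 18 over day 16. Right, percentage of members called higher (orange, to the right) or lower (blue, to the left) on DOX day 18, with dotted lines at 9.25% and 10.9% for all genes. The metallothionein list lies at 3.95 and the mitosis list at -0.84.

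Enzymes that supply nucleotides fell with the replication genes. Of 24 purine and pyrimidine synthesis genes, 17 were lower and 0 higher (median log2 -0.61), and 12 to 15 were lower when a library was left out. Thymidylate synthase (TYMS) was at 78.7 and 67.4 CPM on DOX day 18, against 172 and 190 CPM on DOX day 16 (log2 -1.31, SE 0.13, adjusted p = 6.22e-06). RRM2, the small subunit of ribonucleotide reductase, was at 86.4 and 64.1 CPM on DOX day 18, against 155 and 166 CPM on DOX day 16 (log2 -1.09, adjusted p = 0.000158). ATIC, which closes the purine ring, and UMPS, which makes uridine monophosphate, were at -0.97 and -1.002 (adjusted p = 0.000158 and 0.000703). Serine and folate one-carbon genes were lower in 10 of 17 and higher in 0 (median -0.57), among them MTHFD1 (log2 -0.94, adjusted p = 4.01e-05). Their count was 3 without DOX day 18 replicate 2, 5 without DOX day 18 replicate 1 or DOX day 16 replicate 1, and 6 without DOX day 16 replicate 2.

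Growth genes known as MYC targets fell in part. Of 30 tested, 12 were lower and 1 was higher, with a median log2 fold change of -0.32, and leaving out any of the 4 libraries gave 10 or 11 lower and 0 higher. The E-box CACGTG stands in 13 of 36 windows of these genes (36.1%) and in 15 of 37 windows of ribosome biogenesis genes (40.5%). It stands in 5 of 30 windows of purine and pyrimidine synthesis genes (16.7%) and in 8.9% of all windows. HSPE1, the mitochondrial co-chaperonin, was at 78.7 and 59.0 CPM on DOX day 18, against 157 and 194 CPM on DOX day 16 (log2 -1.35, SE 0.17, adjusted p = 5.5e-05). Its partner HSPD1 was at 313 and 234 CPM on DOX day 18, against 602 and 635 CPM on DOX day 16 (log2 -1.18, adjusted p = 0.000276). ODC1, the first enzyme of polyamine synthesis, was at 68.7 and 51.0 CPM on DOX day 18, against 125 and 131 CPM on DOX day 16 (log2 -1.10, adjusted p = 0.000186), and differed from its UT step by -1.20 (adjusted p = 0.00806; -1.01 and 0.0569 without DOX day 18 replicate 2). The nucleolar protein NCL (-0.91, adjusted p = 0.0014) and the mitochondrial matrix protein C1QBP (-0.86, adjusted p = 0.00053) fell as well. In UT, 4 of the 30 genes were lower and 1 was higher (median -0.19). ODC1 was the only 1 of the 30 called in the difference between the steps, which called a lower step in DOX at 1.42% of all genes.

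Ribosome biogenesis factors were lower in 10 of 38 and higher in 2 (median log2 -0.22), but only 1 was lower without DOX day 18 replicate 2, 2 without DOX day 16 replicate 1, 3 without DOX day 16 replicate 2 and 7 without DOX day 18 replicate 1. NOLC1, a nucleolar chaperone of box snoRNPs, was at 97.6 and 93.6 CPM on DOX day 18, against 151 and 153 CPM on DOX day 16 (log2 -0.67, adjusted p = 0.000421). Translation factors and tRNA synthetases were lower in 13 of 30 and higher in 3 (median -0.25), with 0 higher and 6 lower without DOX day 18 replicate 2, 1 and 8 without DOX day 16 replicate 2, 1 and 10 without DOX day 16 replicate 1, and 3 and 11 without DOX day 18 replicate 1. The guanine nucleotide exchange factor subunit EIF2B3 was the lowest of them (log2 -1.28, adjusted p = 9.03e-05). Cytosolic ribosomal protein genes were higher in 11 of 32 and lower in 2 (median 0.22), whereas with library sizes alone 2 were higher and 8 lower and the median was -0.19. Their higher count was 6 without DOX day 18 replicate 2, 7 without DOX day 16 replicate 1 and 9 otherwise. RPS19, a small-subunit protein, was at 1013 and 1028 CPM on DOX day 18, against 544 and 560 CPM on DOX day 16 (log2 0.89, SE 0.15, adjusted p = 0.000449). RPS24 was at 3076 and 3224 CPM on DOX day 18, against 1727 and 1720 CPM on DOX day 16 (log2 0.87, adjusted p = 0.000421), a call lost with library sizes alone (0.46, adjusted p = 0.0572). RPL12 rose by 0.80 (adjusted p = 0.000111), and RPL30 fell by 0.83 (adjusted p = 0.000718).

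Genes of the respiratory chain moved in opposite directions according to the genome that encodes them. All 13 mitochondrially encoded mRNAs were higher, with a median log2 fold change of 1.23, and 9 to 13 were called when a library was left out. MT-ND1, a complex I subunit, was at 19368 and 22099 CPM on DOX day 18, against 7304 and 7002 CPM on DOX day 16 (log2 1.54, SE 0.27, adjusted p = 0.000659). MT-CO1, the catalytic subunit of complex IV, was at 51335 and 54529 CPM on DOX day 18, against 22650 and 20361 CPM on DOX day 16 (log2 1.30, adjusted p = 0.00156). In UT the median of these 13 mRNAs was 0.51 with 2 called higher, and 0 were called in the difference between the steps. Their median was 0.98 in the DOX step before and 1.34 in the DOX step after. Of 27 nuclear genes for respiratory chain subunits, 16 were lower, 0 were higher and all 27 values were negative (median -0.56). Their count was 8 without DOX day 18 replicate 2 or DOX day 16 replicate 2 and 15 without either of the other libraries. NDUFS1, a complex I subunit that carries iron-sulfur clusters, was at 44.99 and 36.4 CPM on DOX day 18, against 81.9 and 90.3 CPM on DOX day 16 (log2 -1.08, SE 0.12, adjusted p = 1.82e-05). ATP5F1B, the catalytic subunit of ATP synthase, was at 191 and 140 CPM on DOX day 18, against 314 and 339 CPM on DOX day 16 (log2 -0.98, adjusted p = 8.28e-05). COX5A, a complex IV subunit, fell too (-1.09). In UT these 27 nuclear genes had a median of -0.28, with 4 lower and 2 higher. The difference between the steps called a lower step in DOX for 6 of them and a higher one for 0, against 1.42% and 2.67% of all genes. NDUFS1, COX5A and ATP5F1B, which are among the 6, lost that call in at least 1 leave-out. Mitochondrial ribosomal protein genes were lower in 11 of 26 and higher in 0 (median -0.40), among them MRPL19 (-0.86) and MRPL3 (-0.68). Without DOX day 18 replicate 2 or DOX day 16 replicate 2, 3 were lower, 6 without DOX day 16 replicate 1 and 10 without DOX day 18 replicate 1.

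**Figure D3:**
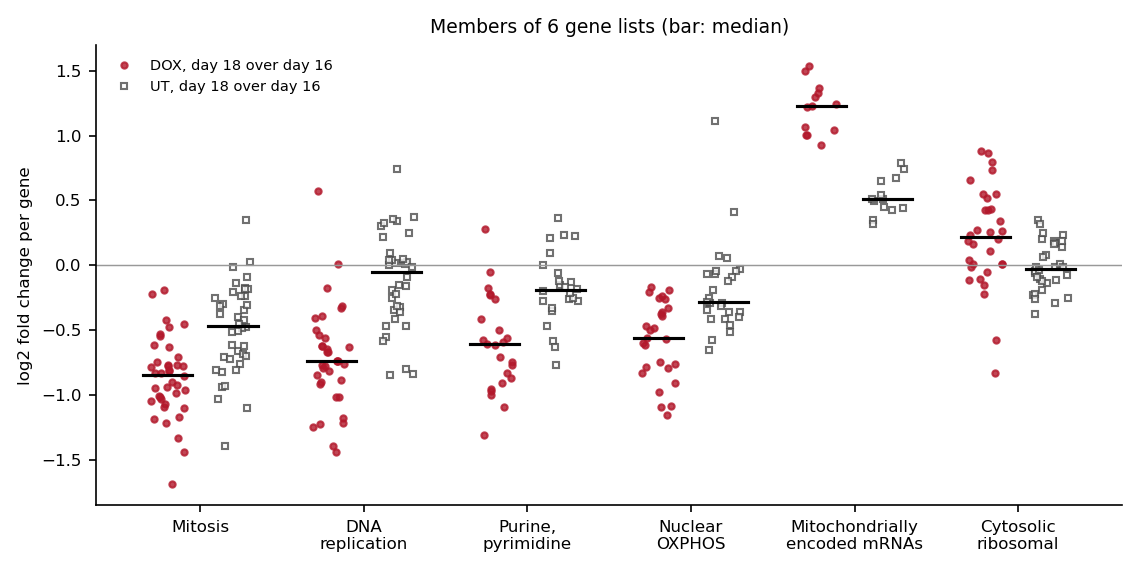
log2 fold change of each tested gene in 6 lists, with filled red circles for DOX day 18 over day 16, open squares for UT day 18 over day 16 and a black bar at the median of each set. The 13 mitochondrially encoded mRNAs lie above 0 and the 27 nuclear oxidative phosphorylation (OXPHOS) genes and 40 mitosis genes lie below 0 in DOX, with medians of 1.23, -0.56 and -0.84.

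Lipid synthesis and endoplasmic reticulum chaperone genes were also lower. Of 26 cholesterol and fatty acid synthesis genes, 15 were lower and 0 higher (median log2 -0.51), and the UT median was 0.09 with 2 lower. The count was 8 without DOX day 18 replicate 2, 9 without DOX day 16 replicate 2, 12 without DOX day 16 replicate 1 and 14 without DOX day 18 replicate 1. INSIG1, which retains the sterol sensor in the endoplasmic reticulum, was at 130 and 129 CPM on DOX day 18, against 239 and 252 CPM on DOX day 16 (log2 -0.92, adjusted p = 0.000388). Unfolded protein response genes were lower in 13 of 20 and higher in 0 (median -0.43), with 5 lower without DOX day 18 replicate 2, 7 without DOX day 16 replicate 1, 8 without DOX day 16 replicate 2 and 10 without DOX day 18 replicate 1. HSPA5, the chaperone BiP, was at 314 and 327 CPM on DOX day 18, against 556 and 577 CPM on DOX day 16 (log2 -0.82, SE 0.10, adjusted p = 5.18e-05).

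Of 36 myeloid transcription factors, 16 were higher and 1 was lower (median log2 0.49; 5 higher, 7 lower and 0.08 with library sizes alone). Their higher count was 6 without DOX day 16 replicate 2, 10 without DOX day 18 replicate 2 and 11 or 12 otherwise. CEBPB, a factor of emergency granulopoiesis, was at 65.5 and 73.9 CPM on DOX day 18, against 28.4 and 27.8 CPM on DOX day 16 (log2 1.31, SE 0.16, adjusted p = 5.18e-05). KLF2, a zinc finger factor known for keeping T cells quiescent, was at 18.8 and 11.4 CPM on DOX day 18, against 3.08 and 2.39 CPM on DOX day 16 (log2 2.46, SE 0.31, adjusted p = 5.26e-05). RUNX2, a Runt-domain factor, was at 7.93 and 7.74 CPM on DOX day 18, against 2.23 and 1.47 CPM on DOX day 16 (log2 2.08, adjusted p = 9.29e-05). For each of the 3 factors the lowest later library lay above the highest earlier one.

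NADPH oxidase and phagocyte receptor genes were higher in 13 of 30 and lower in 2 (median log2 0.49; 8 higher, 3 lower and 0.08 with library sizes alone), and 9 to 11 were higher and 0 or 1 lower when a library was left out. CLEC12A, an inhibitory lectin receptor of myeloid cells, was at 12.0 and 16.8 CPM on DOX day 18, against 4.33 and 3.69 CPM on DOX day 16 (log2 1.84, adjusted p = 8.99e-05). CD300LF, an inhibitory receptor of myeloid cells, was at 17.4 and 14.7 CPM on DOX day 18, against 5.37 and 4.34 CPM on DOX day 16 (log2 1.72, adjusted p = 8.87e-06). ITGAX, the integrin subunit CD11c, rose by 1.45 (adjusted p = 0.0013). In UT over the same days 10 genes of this list were higher and 0 lower (median 0.27), against 3.93% and 6.69% of all genes. CLEC12A and CD300LF were called higher in UT too (log2 0.91 and 0.99), and ITGAX was not called there (0.53). Later neutrophil genes were higher in 7 of 27 and lower in 0 (median 0.72, or 0.40 without DOX day 18 replicate 1; 3 higher and 1 lower with library sizes alone), with 3 higher without DOX day 18 replicate 2 or DOX day 16 replicate 2. MMP25, a membrane-anchored metalloproteinase of neutrophils, was at 14.8 and 12.2 CPM on DOX day 18, against 4.47 and 3.59 CPM on DOX day 16 (log2 1.74, SE 0.18, adjusted p = 8.87e-06). ARG1, arginase of granulocytes, was at 2.26 and 2.09 CPM on DOX day 18, against 0.328 and 0.128 CPM on DOX day 16 (log2 3.23, adjusted p = 0.000616). In UT, 4 later neutrophil genes were higher and 0 lower (median 0.48), and MMP25 and ARG1 were called higher there (log2 0.88 and 2.34). Primary granule genes moved less, with 3 of 19 higher, 0 lower and a median of 0.38 that was -0.02 with library sizes alone, and with 1 higher without DOX day 18 replicate 2 or DOX day 16 replicate 2. AZU1 rose (log2 0.85, adjusted p = 0.00266; 0.44 and 0.126 with library sizes alone). In UT, 4 primary granule genes were higher and 0 lower (median 0.19). Myeloperoxidase (MPO) was at 812 and 819 CPM on DOX day 18 and at 1066 and 967 CPM on DOX day 16 and was not called (-0.32, adjusted p = 0.168), although it was lower with library sizes alone (-0.73, adjusted p = 0.00462).

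Eosinophil genes were higher in 9 of 19 and lower in 0 (median log2 0.77), and UT over the same days gave 11 higher with a median of 0.75. With library sizes alone 2 were higher and 2 lower, and the count was 3 without DOX day 18 replicate 2 or DOX day 16 replicate 2 and 6 without either of the other libraries. IL5RA, the receptor for the eosinophil growth factor interleukin-5, was at 43.6 and 51.5 CPM on DOX day 18, against 17.6 and 14.99 CPM on DOX day 16 (log2 1.55, SE 0.18, adjusted p = 3.01e-05). PRG2, the major basic protein of the granule, was at 5260 and 6631 CPM on DOX day 18, against 3150 and 3416 CPM on DOX day 16 (log2 0.86, adjusted p = 0.00415). Its call was lost without DOX day 18 replicate 2 (0.67, adjusted p = 0.0765), as well as under scaling by library size only (0.45, adjusted p = 0.11). Eosinophil peroxidase (EPX) was at 1555 and 1990 CPM on DOX day 18, against 1037 and 842 CPM on DOX day 16 (log2 0.92, adjusted p = 0.0076). The EPX call was lost without DOX day 18 replicate 2 (0.72, adjusted p = 0.115) or DOX day 16 replicate 2 (0.76, adjusted p = 0.102), as well as under scaling by library size only (0.50, adjusted p = 0.114). ADGRE1, the EMR1 receptor of eosinophils, was at 3.73 and 4.51 CPM on DOX day 18, against 0.882 and 0.726 CPM on DOX day 16 (log2 2.36, adjusted p = 5.66e-05). IL5RA differed from its UT step by 0.78 (adjusted p = 0.0854) and PRG2 by -0.03 (adjusted p = 0.997).

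Mast cell and basophil genes were higher in 9 of 22 and lower in 1 (median log2 0.49; 1 higher, 3 lower and 0.08 with library sizes alone). The higher count was 2 without DOX day 16 replicate 2, 4 without DOX day 18 replicate 2, 5 without DOX day 16 replicate 1 and 7 without DOX day 18 replicate 1. HDC, which makes histamine, was at 141 and 131 CPM on DOX day 18, against 83.3 and 51.6 CPM on DOX day 16 (log2 1.01, adjusted p = 0.00487), a call lost without DOX day 16 replicate 2 (0.70, adjusted p = 0.105), and under scaling by library size only (0.60, adjusted p = 0.0748). LTC4S, which makes leukotriene C4, was at 7.53 and 7.35 CPM on DOX day 18, against 3.01 and 3.22 CPM on DOX day 16 (log2 1.25, adjusted p = 0.00166).

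NF-kB and feedback genes were higher in 7 of 18 and lower in 2 (median log2 0.49; 3 higher, 3 lower and 0.08 with library sizes alone), with 3 higher without DOX day 16 replicate 2, 4 without either DOX day 18 replicate and 5 without DOX day 16 replicate 1. BIRC3, an inhibitor of apoptosis induced by NF-kB, was at 40.7 and 44.8 CPM on DOX day 18, against 14.3 and 13.3 CPM on DOX day 16 (log2 1.63, SE 0.15, adjusted p = 2.55e-06), and rose in UT by 1.78. TRAF1, an adaptor of TNF receptors, was at 12.7 and 11.1 CPM on DOX day 18, against 4.61 and 4.23 CPM on DOX day 16 (log2 1.43, adjusted p = 0.000115). The UT step of TRAF1 was at -0.11, and its steps differed by 1.54 (SE 0.28, adjusted p = 0.0063). Immediate early and ERK feedback genes were higher in 7 of 27 and lower in 1 (median 0.40, or -0.00 with library sizes alone), with 2 higher without DOX day 18 replicate 2, DOX day 16 replicate 1 or DOX day 16 replicate 2 and 3 without DOX day 18 replicate 1. JUND, an AP-1 subunit, was at 264 and 293 CPM on DOX day 18, against 104 and 116 CPM on DOX day 16 (log2 1.34, SE 0.13, adjusted p = 4.99e-06), and exceeded its UT step by 0.99 (adjusted p = 0.0065). DUSP6, a phosphatase that inactivates ERK, rose by 1.07 (adjusted p = 4.76e-05).

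**Figure D4:**
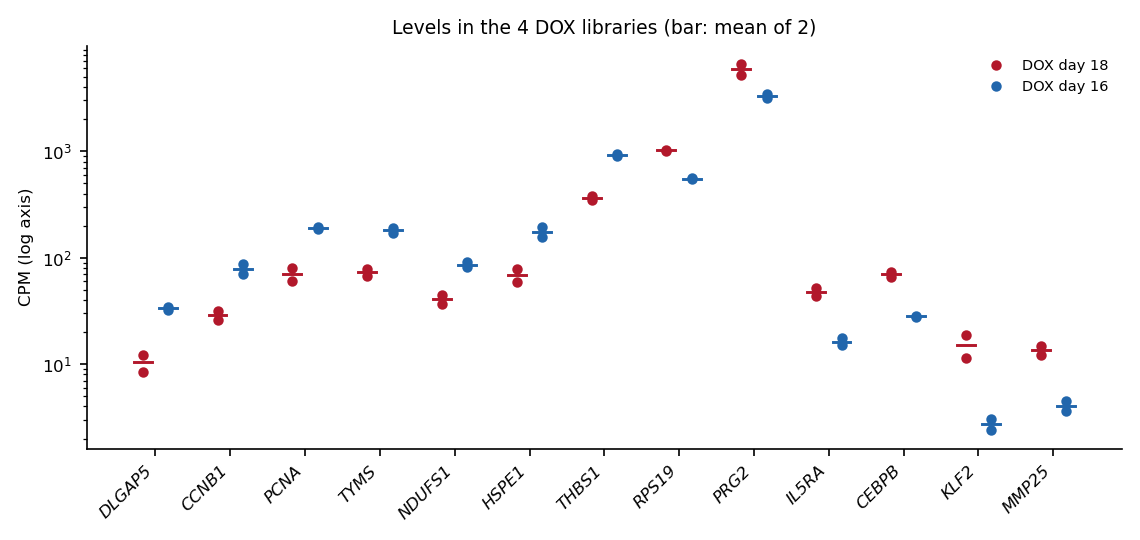
Level of 13 genes in the 4 DOX libraries, in CPM on a log axis, with red for DOX day 18 on the left of each pair, blue for DOX day 16 and a bar at the mean of 2 libraries. From left to right, 7 genes that fell (DLGAP5 to THBS1) and 6 that rose (RPS19 to MMP25) are drawn, and in none of the 13 do the days overlap.

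Megakaryocyte and platelet genes were lower in 15 of 32 and higher in 1 (median log2 -0.53), against 25 lower and a median of -1.28 in UT. Between the steps, 6 of the 32 differed, all with a higher step in DOX, against 2.67% of all genes. The lower count in DOX was 5 without DOX day 16 replicate 2, 7 without DOX day 18 replicate 1, 9 without DOX day 18 replicate 2 and 13 without DOX day 16 replicate 1. THBS1, the thrombospondin of platelet granules, was at 377 and 345 CPM on DOX day 18, against 895 and 937 CPM on DOX day 16 (log2 -1.34, SE 0.26, adjusted p = 0.00159), and was at -1.21 in UT. The median of the list was -1.29 in the DOX step that followed.

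Of 43 tested erythroid and haem genes, 5 were higher and 7 lower in DOX (median log2 -0.05), against 9.25% and 10.9% of all genes. UT had 18 lower and 0 higher (median -0.63), against 6.69% and 3.93% of all genes. The steps differed in 13 of the 43, all with a higher step in DOX, against 2.67% of all genes. SLC25A37, the mitoferrin that carries iron into mitochondria, was at 610 and 790 CPM on DOX day 18, against 271 and 307 CPM on DOX day 16 (log2 1.28, SE 0.18, adjusted p = 0.000115), and was at -1.14 in the next DOX step (adjusted p = 0.000311). KEL, a red cell surface metalloprotease, was at 88.4 and 106 CPM on DOX day 18, against 45.2 and 46.7 CPM on DOX day 16 (log2 1.08, adjusted p = 0.00144). In UT it fell, to 19.7 and 17.4 CPM on day 18 against 35.2 and 37.9 CPM on day 16, and the steps differed by 2.06 (SE 0.30, adjusted p = 0.00131). GYPB, a glycophorin with near-identical relatives and therefore uncertain, fell in both arms: it was at 4.88 and 5.65 CPM on DOX day 18, against 10.9 and 19.9 CPM on DOX day 16 (log2 -1.55, adjusted p = 0.000281), and at 0 and 0.051 CPM on UT day 18, against 2.75 and 2.79 CPM on UT day 16. Erythroid counts were 2 higher and 4 lower without DOX day 18 replicate 2, 3 higher and 6 lower without DOX day 16 replicate 1, 5 higher and 2 lower without DOX day 16 replicate 2, and 5 of each without DOX day 18 replicate 1.

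MHC class II and dendritic cell genes were lower in 9 of 25 and higher in 1 (median log2 -0.70, equal in UT at -0.70), with 4 lower without DOX day 18 replicate 2 or DOX day 16 replicate 2, 6 without DOX day 18 replicate 1 and 7 without DOX day 16 replicate 1. CD1C, which presents lipid antigens on dendritic cells, was at 2.30 and 2.22 CPM on DOX day 18, against 4.88 and 7.26 CPM on DOX day 16 (log2 -1.43, adjusted p = 0.000927), and the lectin CLEC10A was at -1.31 (adjusted p = 0.00436). The invariant chain CD74, with the most counts in the list, was at 122 and 126 CPM on DOX day 18 and at 144 and 142 CPM on DOX day 16 and was not called (-0.21, adjusted p = 0.441), although it was lower with library sizes alone (-0.61, adjusted p = 0.0271). Interferon-stimulated genes were lower in 6 of 31 and higher in 1 (median -0.21), with 3 lower without DOX day 18 replicate 2 and 4 without any other library. IFITM1, a membrane protein that restricts viral entry, was at 3.19 and 2.99 CPM on DOX day 18, against 11.7 and 10.1 CPM on DOX day 16 (log2 -1.82, adjusted p = 0.00173). OAS3, a sensor of double-stranded RNA, was at -1.40 (adjusted p = 0.00108).

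LIN28A and LIN28B, RNA-binding proteins of fetal cells that block let-7 maturation, both fell. LIN28A was at 14.0 and 16.1 CPM on DOX day 18, against 42.1 and 65.4 CPM on DOX day 16 (log2 -1.83, SE 0.32, adjusted p = 0.000611). LIN28B was at 24.5 and 17.5 CPM on DOX day 18, against 37.3 and 41.3 CPM on DOX day 16 (log2 -0.91, SE 0.15, adjusted p = 0.000434). In UT, LIN28A fell too (log2 -1.49, adjusted p = 0.0356) and LIN28B was at -0.30. Neither differed between the steps (LIN28A -0.34, adjusted p = 0.793, and LIN28B -0.60, adjusted p = 0.124). ARID3A, a let-7 target in mouse lymphoid progenitors that belongs to the same list of 15, was higher (log2 0.96, adjusted p = 0.000264). Of the 15, 1 was called higher and 2 lower (median -0.18), against 9.25% and 10.9% of all genes. Of 30 chromatin regulators 8 were lower and 2 higher (median -0.16), with 4 lower without DOX day 18 replicate 2 and 5 without DOX day 16 replicate 1. The lowest of the list was LMNB1, the lamin B1 of the nuclear envelope, which fell to 80.9 and 65.4 CPM on DOX day 18, against 166 and 172 CPM on DOX day 16 (log2 -1.21, adjusted p = 0.000275).

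Other lists held smaller numbers of calls, to be read against 9.25% of all genes called higher and 10.9% called lower. Growth factor receptors were higher in 8 of 28 and lower in 2 (median log2 0.22, or -0.18 with library sizes alone), with 4 higher without DOX day 18 replicate 2 or DOX day 16 replicate 2. Inflammatory cytokines and chemokines were higher in 7 of 32 and lower in 4 (median 0.32, or -0.08 with library sizes alone), with 1 higher without DOX day 16 replicate 2, 3 without DOX day 16 replicate 1 and 4 without either DOX day 18 replicate. Erythroid and megakaryocytic transcription factors were higher in 6 of 20 and lower in 1 (median 0.20, or -0.20 with library sizes alone), with 1 higher without DOX day 18 replicate 2, 2 without DOX day 16 replicate 1 and 4 without either other library. Glycolysis and pentose phosphate genes were higher in 6 of 28 and lower in 4 (median 0.07, or -0.33 with library sizes alone), while UT had 10 higher and 1 lower, and leaving out a library gave 4 to 6 higher and 1 to 3 lower. Monocyte and macrophage genes were higher in 2 of 36 and lower in 4 (median -0.03), against 2 higher and 8 lower in UT, and leaving out a library gave 1 or 2 higher and 0 to 2 lower. Genes of the stem and progenitor list were higher in 3 of 29 and lower in 4 (median -0.01), shares near those of all genes. Fewer were called higher when any of the 4 libraries was left out. KIT, the receptor for stem cell factor, fell to 27.0 and 28.97 CPM on DOX day 18, against 44.3 and 50.6 CPM on DOX day 16 (log2 -0.76, adjusted p = 0.0200). SOX4 and IGF2BP2 were among the members called higher.

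Among single genes with a mean of at least 2 CPM, several of the largest values came from rows that share exons with a neighbour and are therefore uncertain. The readthrough row ZFP91-CNTF had 819 counts in the 2 DOX day 18 libraries and 0 in the 2 DOX day 16 libraries, at least 189-fold higher against a floor of 3 counts per library. Readthrough HNRNPUL2-BSCL2 had 16 counts on DOX day 18 and 4438 on DOX day 16. BSCL2, the overlapping seipin gene, was named after its values were seen and moved the other way, at 20.1 and 23.1 CPM on DOX day 18, against 3.77 and 4.34 CPM on DOX day 16 (log2 2.41, SE 0.21, adjusted p = 1.92e-06). Of genes outside such pairs, APOBEC3A, a cytidine deaminase of myeloid cells, had 462 counts on DOX day 18 and 0 on DOX day 16, at least 101-fold higher, although its 2 later libraries differed (2.80 and 9.91 CPM). JPH2, a junctophilin that tethers the plasma membrane to the endoplasmic reticulum, was at 6.03 and 4.21 CPM on DOX day 18, against 0.308 and 0.534 CPM on DOX day 16 (log2 3.595, adjusted p = 6.91e-05). CAPN12, a calpain protease, was at 6.14 and 6.53 CPM on DOX day 18, against 0.841 and 0.577 CPM on DOX day 16 (log2 3.15, adjusted p = 1.92e-05). On the lower side, COL2A1, a fibrillar collagen, was at 0.753 and 1.39 CPM on DOX day 18, against 5.47 and 5.19 CPM on DOX day 16 (log2 -2.26, adjusted p = 0.00085). The histone variant gene MACROH2A2 was at 3.23 and 2.40 CPM on DOX day 18, against 10.1 and 9.85 CPM on DOX day 16 (log2 -1.83, SE 0.20, adjusted p = 1.89e-05). The heat shock gene HSPA1B, with a near-identical copy, was at 15.8 and 11.8 CPM on DOX day 18, against 47.8 and 49.0 CPM on DOX day 16 (log2 -1.81, adjusted p = 4.33e-05).

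Set against the UT step over the same days, the DOX step was higher at 537 genes (2.67%) and lower at 286 (1.42%). In all it differed at 823 genes (4.09%). The count was 178 without DOX day 18 replicate 2, 272 without DOX day 16 replicate 1, 340 without DOX day 16 replicate 2, 472 without UT day 16 replicate 1 and 461 without UT day 16 replicate 2. The UT step itself held 2135 called genes (10.6%), of which 790 were higher and 1345 lower. Of genes called in both steps, 854 moved the same way and 61 the opposite way. Of the 1860 genes higher in the DOX step, 250 were also called higher in the difference. Of the 2199 genes lower in the DOX step, 223 were called lower and 15 higher in the difference. At 583 of the 823 genes the fitted DOX and UT steps had opposite signs.

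The DOX step was also set beside each UT step, none of which shares a library with it. Across all 20115 genes, which are not independent replicates, Pearson's r of the log2 fold changes was 0.146 for UT day 10 to 12, 0.25 for day 12 to 14, 0.368 for day 14 to 16, 0.148 for day 16 to 18 and -0.00217 for day 18 to 20. Over the 12530 genes with a mean of at least 2 CPM over all 22 libraries it was 0.259, 0.338, 0.631, 0.357 and 0.0395 in the same order. Of the 4059 genes called in the DOX step, whether or not called in UT, the share with the same sign was 91.8% for UT day 14 to 16 and 80.3% for UT day 16 to 18. The UT step nearest in pattern was thus the one from day 14 to day 16, a description without a test.

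**Figure D5:**
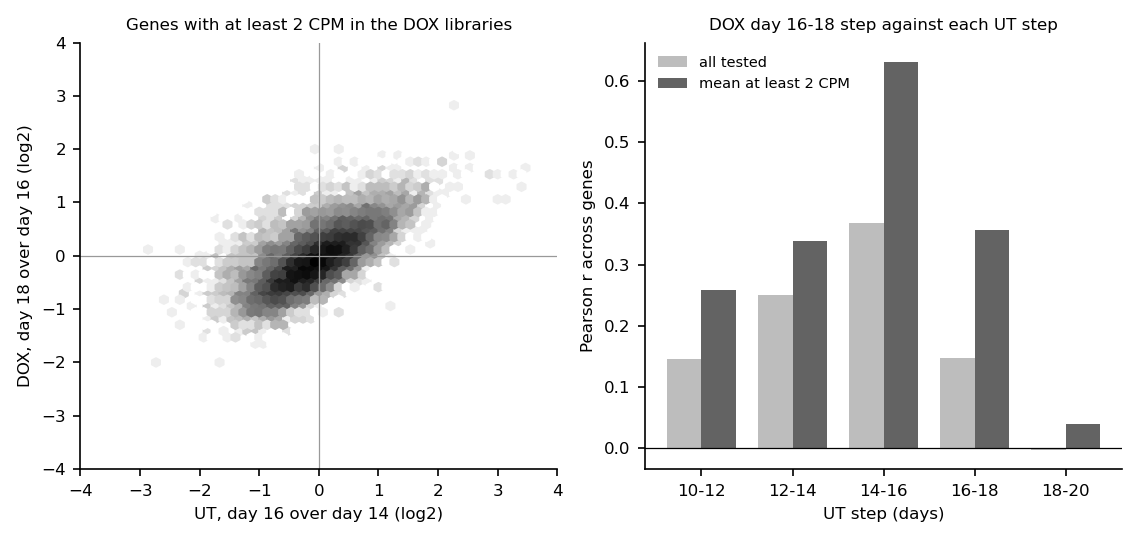
Left, density of genes with a mean of at least 2 CPM by log2 fold change in the DOX step from day 16 to day 18 (vertical axis) and in the UT step from day 14 to day 16 (horizontal axis). Right, Pearson's r across genes between the DOX step and each of 5 UT steps. Light bars are for all tested genes and dark bars for genes with a mean of at least 2 CPM over all 22 libraries. The highest bar is 0.631, and its gene set is not the one drawn on the left.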

How the data were processed

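Gene-level expected counts from polyA RNA-seq of 22 libraries (11 groups of 2) were used as deposited by the authors, with 88.3% of entries whole, and were rounded to whole numbers. Per the submitters' processing notes, Trim Galore 0.6.5, STAR, Salmon and hg38 were used. Versions of STAR and Salmon, the annotation, strand handling and the day doxycycline was added are not given in the sources used here. Of 60240 gene rows, 58020 matched GENCODE release 29 by identifier and 20115 passed the edgeR filter (minimum count 10). One edgeR 4.0.16 quasi-likelihood model (R 4.3.3, TMM scaling; 11 degrees of freedom remained and the common biological variation was 0.184) held all 22 libraries with 1 term per group, and p-values were adjusted over all tested genes. The difference of steps was a contrast of that model. Alternatives used limma 3.58.1 and DESeq2 1.42.0. Figures were drawn with matplotlib 3.10.9 and tables made with pandas 2.3.3 in Python 3.11.15 (numpy 2.4.6). The model was tested on simulated data. The members and gene lists were chosen with earlier results of these data known. Named genes were MYC, the 12 highest and 12 lowest called changes with a mean of at least 2 CPM and separate groups, the 6 highest and 6 lowest called differences, and, for every list, its most abundant member and at most 5 called members of greatest change, and the text prints a selection. Promoter windows came from RefSeq (GRCh38.p14). The metal response motif and the list counts without single libraries were chosen after seeing the data. Some named genes are not reported here.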

Additional observations from a re-analysis of the deposited data

Results flagged for a closer look

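The genes below were singled out because their change from day 16 to day 18 differed between DOX and UT by the test of the difference itself (edgeR, adjusted over all tested genes). Each value in brackets is the DOX step minus the UT step on the log2 scale. It compares changes between the arms and does not compare their levels on a day. Genes with a higher step in DOX whose call held when each of the 8 libraries was left out in turn were RPS24 (1.06), RPL12 (0.90), MT2A (3.55), MT1X (4.38), HMOX1 (2.96), TRAF1 (1.54), JUND (0.99), KEL (2.06) and BSCL2 (2.62). Genes with a higher step in DOX that lost the call in at least 1 of the 8 leave-outs were CDKN1C (1.01), MALAT1 (2.23), KLF2 (1.98), RUNX2 (1.43), CEBPB (1.13), HDC (1.28), MMP25 (0.86), DUSP6 (0.67), SLC25A37 (1.06) and CAPN12 (2.31). Genes with a lower step in DOX that lost it in at least 1 were ODC1 (-1.20), NOLC1 (-0.57), RPL30 (-0.81), TYMS (-0.68), RRM2 (-0.81), ATIC (-0.91), NDUFS1 (-0.67), COX5A (-1.05), ATP5F1B (-0.86), HSPA5 (-0.55), EIF2B3 (-0.92), MCM10 (-1.23), TFDP1 (-0.96), MACROH2A2 (-1.15) and LY6G5B (-2.24). The call was lost in all 8 for NOLC1, RUNX2 and MMP25.

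In 5 further genes the call held in all 8 leave-outs but a group at or near 0 counts sets the size, so the fitted values depend on the prior count and are no bound. They were APOBEC3A (11.18), ZFP91-CNTF (10.34), GYPB (4.82), COL11A1 (7.35) and MT1G (6.33). With limma-voom, the adjusted p was 0.11 for GYPB and 0.0855 for ZFP91-CNTF.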

How the results depend on the processing

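Of the alternatives, library sizes as the only scaling gave 6416 calls in the DOX step (675 higher, 5741 lower) and 531 in the difference of steps (167 lower). A test against a 2-fold threshold gave 96 (70 higher, 26 lower) and 36 (33 higher, 3 lower). The difference held 1362 calls with no filter on low counts (872 higher, 490 lower), 215 with only the groups compared (187 higher, 28 lower) and 1896 with DESeq2 (1037 higher, 859 lower). Leaving out a library gave 1493 to 3109 calls in the step (730 to 1362 higher, 763 to 1747 lower) and 178 to 1033 in the difference (142 to 746 higher, 36 to 329 lower). The step count stayed within 1.5 times of 4059 with DESeq2 size factors (4019), no filter (4233), a 1 CPM filter (4273), mitochondrial genes removed (3989), limma-voom (5217), DESeq2 (5201) and only the groups compared (5294). The rise in mitochondrial share was 12.85 points over the 13 mRNAs alone and 15.73 to 17.21 points without 1 library. With genes of at least 2 CPM the likeness to UT steps was 0.259, 0.631, 0.357 and 0.0395 for days 10 to 12, 14 to 16, 16 to 18 and 18 to 20. The cause of these shifts was not tested. With the replicate number as a block, the step held 4735 calls (2219 higher, 2516 lower) and the difference 1284 (808 higher, 476 lower), but deviations of same-numbered libraries correlated at only 0.118, 0.0577 and 0.052, so the numbers are not taken to pair the libraries. No called gene of the text changed sign under these alternatives; list medians that did with library sizes alone are given beside their lists. With 2 libraries per group, precision is limited by replicate number.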
